A study of Homo sapiens with 9 samples.

Results

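Messenger RNA of 10 transcription factor genes was examined in undifferentiated Caco-2 cells (uCaco-2) treated with 2 chemical HIF activators. These genes encode the FOS family members FOS, FOSB, FOSL1 and FOSL2, the JUN family members JUN, JUNB and JUND, and the immediate-early or stress factors ATF3, EGR1 and MAFF. They were taken by symbol from the deposited counts table, where all 10 were among the 60591 symbols listed. Caco-2 is a human colon adenocarcinoma line, and its undifferentiated state is the proliferating one. Control cells received fresh medium, the second group received 300 μM CoCl2, and the third received 5 μM of an oxyquinoline derivative (OD). All 3 groups had 0.5% DMSO for 24 h, with 3 biological replicates each, so that a single line at a single time after treatment was sampled.

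AP-1 is a dimeric transcription factor built from basic leucine zipper proteins. JUN proteins can pair with each other or with FOS proteins, whereas FOS proteins need a partner, and the dimers bind short DNA elements known as TRE and CRE. Many of these genes belong to the immediate-early class, which growth factors and stress switch on without new protein synthesis. Their transcripts usually decay fast, in part through AU-rich elements in the 3′ end of the mRNA. EGR1 is a zinc finger factor of the same early class, ATF3 is induced by many stresses, and MAFF is a small MAF protein that lacks an activation domain of its own.

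Libraries held between 15998136 and 24209427 counts. Counts were scaled to CPM, a level relative to the whole library, by edgeR's TMM factors, which correct for shifts in composition and were 0.77 to 0.795 under CoCl2, 1.11 to 1.12 in control cells and 1.14 to 1.15 under OD. A share of 21.7% to 22.4% of all counts fell on the top 50 genes under CoCl2, and one of 15.7% to 16.2% in the other 6 libraries. Marker sums were taken in CPM by library size alone, without TMM factors. On that scale the 7 epithelial markers summed to 10200 to 12600 CPM in every library. The 8 markers of immune, fibroblast and endothelial cells summed to 9.32 to 29.2 CPM. The sum of the latter was lowest under CoCl2, at up to 10.7 CPM, and highest under OD, at 27.6 CPM and above, and PTPRC, COL1A2 and DCN were at 0 in the control libraries. COL1A1 carried most of this sum, with 14.4 CPM in control cells, 10.2 under CoCl2 and 21.7 under OD by TMM factors. The markers did not move together. With TMM factors VWF rose from 0.373 to 1.16 CPM under CoCl2 (log2 fold change 1.61), while COL1A1 and PECAM1 had log2 fold changes of -0.49 and -0.80. The part of these differences in the results was not tested. Among the epithelial markers VIL1, which encodes villin, had a log2 fold change of -2.45 under CoCl2 and -0.43 under OD. The other epithelial markers lay between 0.18 and 0.49 under CoCl2 and between -0.27 and 0.53 under OD. The median of all 7 under CoCl2 was 0.28 with TMM factors and -0.22 with library size alone.

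The 10 genes are compact. In GENCODE release 44 on GRCh38 the canonical transcript of each of the 10 had at most 4 exons, as did 20.4% of the protein-coding genes tested, whose median was 9 exons. JUN, JUNB and JUND consist of 1 exon each. JUNB lies on chromosome 19 from 12791486 to 12793315 on the plus strand, and HOOK2 on the opposite strand overlaps 14.2% of its exon sequence. MAFF lies on chromosome 22 from 38200767 to 38216507 on the plus strand and PLA2G6, also on the opposite strand, overlaps 5.81% of its exon sequence. For the other 8 genes no exonic base was shared with another gene. The study's libraries were made with a stranded kit. The strand setting of the counting is not given in the sources used here, so reads of these pairs could be mixed. HOOK2 had 40.4 ± 0.459 CPM (SD, n = 3) in control cells and 16.9 ± 0.992 under CoCl2, the opposite direction to JUNB below. PLA2G6 had 4.11 ± 0.294 CPM in control cells and 9.1 ± 0.438 under CoCl2, the same direction as MAFF below.

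The AU-rich pentamer AUUUA, written ATTTA in the gene, occurred at least once in the 3′ untranslated region of all 10 genes, as in 72.4% of the tested genes with such a region. FOS held 5 copies in 806 bases and JUNB 2 copies in 500 bases, densities of 6.2 and 4 per kilobase against a median of 1.66 over the tested genes. EGR1 had the lowest density of the members, with 1 copy in 1222 bases. The density was above that median for 6 of the 10.

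Promoter stretches of 6 members are shown because these genes span the range of responses described further on. Each stretch was cut to hold letters marked in capitals. The windows are those of RefSeq on GRCh38.p14, from 250 bases before to 50 bases after the transcript start, of which only letters before the start are printed. Capitals mark TGACG or its reverse complement CGTCA, the full CRE TGACGTCA that contains it, and the CArG box bound by the serum response factor. FOS is chr14:75278718-75278822, FOSB chr19:45467886-45467990, JUNB chr19:12791326-12791425, MAFF chr22:38201929-38201958 and EGR1 chr5:138465329-138465478, all on the plus strand, and JUND is chr19:18281743-18281842 on the minus strand. The MAFF stretch lies in an exon of another MAFF transcript, and the others hold no annotated exon.
FOS: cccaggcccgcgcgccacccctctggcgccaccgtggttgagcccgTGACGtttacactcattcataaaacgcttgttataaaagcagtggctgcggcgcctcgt
FOSB: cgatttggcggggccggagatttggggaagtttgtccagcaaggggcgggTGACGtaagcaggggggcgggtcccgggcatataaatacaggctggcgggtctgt
JUNB: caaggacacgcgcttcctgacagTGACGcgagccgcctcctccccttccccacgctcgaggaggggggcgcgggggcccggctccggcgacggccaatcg
MAFF: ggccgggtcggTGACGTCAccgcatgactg
EGR1: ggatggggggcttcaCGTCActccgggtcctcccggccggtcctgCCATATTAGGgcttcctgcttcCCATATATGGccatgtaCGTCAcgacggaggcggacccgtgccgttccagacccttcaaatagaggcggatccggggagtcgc
JUND: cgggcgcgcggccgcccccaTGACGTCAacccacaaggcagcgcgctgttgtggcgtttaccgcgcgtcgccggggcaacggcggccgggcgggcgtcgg

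TGACG was present on either strand in 8 of the 11 windows of members, in 8 genes, and in 24.6% of all 35116 windows. This motif was picked after the windows had been read, and FOSL1 had no window in the table. The complete CRE was found for MAFF at bases -54 to -47 and for JUND at bases -200 to -193, and in 1.85% of all windows. Among the member windows only that of EGR1 held CArG boxes, at bases -105 to -96 and -83 to -74, and 1.29% of all windows held at least 1. Sequence farther than 250 bases before the start was not read, so elements beyond it would be missed. A TRE, TGACTCA or TGAGTCA, occurred in the FOSL2 window only, as in 4.95% of all windows. ACGTG or GCGTG, letters found within hypoxia response elements, stood in 8 of the 11 member windows and in 48.4% of all windows. TGATGCAA or TTGCATCA was in no member window and in 0.866% of all windows. None of these motifs was found for ATF3. A match to such letters is not evidence of binding.

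Under CoCl2, the level of all 10 transcripts was higher than in control cells and no library of one group overlapped the other. Such complete separation upward held for 40.5% of the 15944 genes tested. In the edgeR fit, with p-values adjusted over these genes by Benjamini and Hochberg's method, all 10 had a positive log2 fold change at an adjusted p under 0.05, as did 40.4% of the genes tested. FOS, FOSB, FOSL1, JUN, JUNB, ATF3 and MAFF also passed the threshold of 1 on the log2 scale and are termed called, 7 of 10, against 19.9% of tested genes called higher. No member was called lower, against 23.4% of tested genes. The median log2 fold change of the 10 was 2.85, and that of all tested genes was -0.049. Scaling by library size alone moved the median of all tested genes to -0.55 and FOSL2 to -0.016, while 7 members were again called. Of the 15944 tested genes 1833 were then called higher and 5839 lower. In bulk RNA, a change in the RNA of each cell and a change in which cells were present cannot be told apart.

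**Figure D1:**
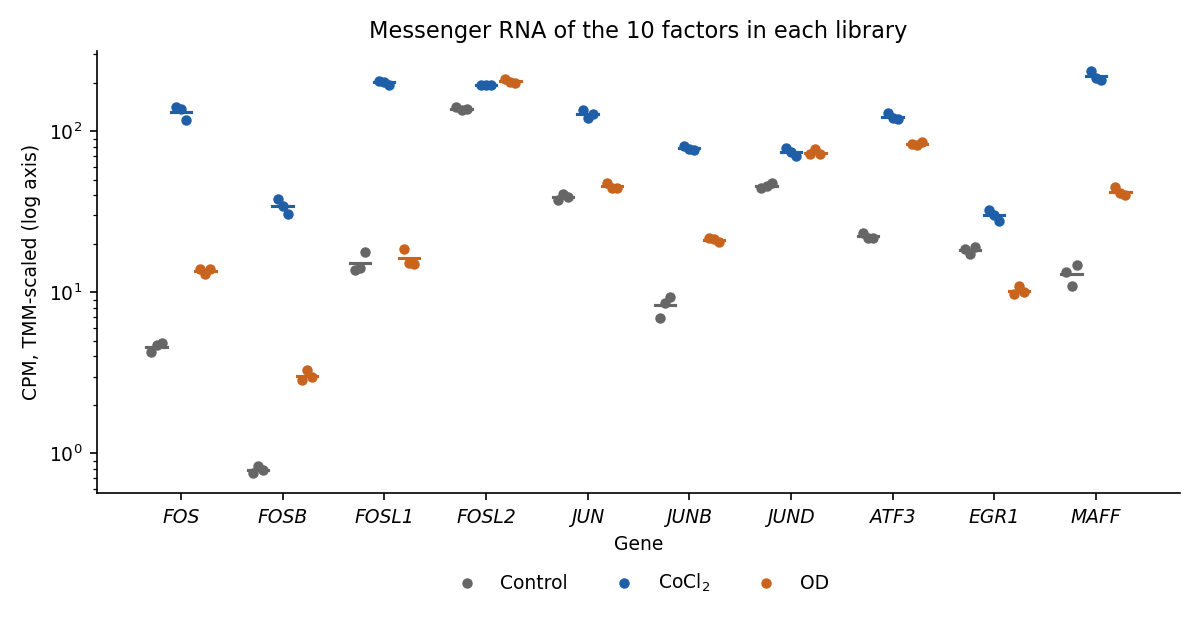
Each point is 1 library (CPM on a log axis, scaled by TMM factors) and each bar the mean of 3 libraries, for control cells, CoCl2 and OD. The CoCl2 points lie above the control points for all 10 genes, and those of EGR1 under OD lie below them.

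FOS, the founding partner of JUN in AP-1, had 4.25, 4.71 and 4.82 CPM in the control libraries, 141.0, 136.7 and 116.9 CPM under CoCl2, and 13.99, 12.96 and 13.9 CPM under OD. The 3 groups did not overlap. On the log2 scale it rose by 4.83 under CoCl2 (standard error 0.081, adjusted p = 2.24e-52 by edgeR), or 28.5-fold, and 1.56 under OD (standard error 0.108, adjusted p = 5.19e-20), or 2.96-fold.

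FOSB, whose transcript also yields a truncated protein lacking the transactivation domain, had the highest fitted fold change of the 10 with each treatment, although ATF3 was within a standard error of it under OD. It was counted only 14 to 17 times per control library (0.753, 0.833 and 0.785 CPM). Under CoCl2 it reached 38.1, 34.2 and 30.7 CPM, and under OD 2.86, 3.29 and 2.98 CPM, again without overlap between any groups. The rise was 42.9-fold under CoCl2 (log2 fold change 5.42, standard error 0.138, edgeR adjusted p = 2.09e-43) and 3.82-fold under OD (1.93, standard error 0.22, adjusted p = 1.06e-11). The low control counts made its standard error under OD the largest of all 10 genes. Ordered by log2 fold change under CoCl2, FOSB ranked 68 and FOS 103 among the tested genes.

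FOSL1 encodes FRA1, a FOS protein without a transactivation domain that is often abundant in carcinoma cells, and it separated the treatments. Control libraries had 13.7, 14.2 and 17.7 CPM and OD libraries 18.7, 15.3 and 15.0 CPM, so that these groups overlapped. Under CoCl2 the values were 206.2, 202.9 and 194.0 CPM, the highest level per kilobase of any member under that treatment. The log2 fold change was 3.73 under CoCl2 (standard error 0.067, edgeR adjusted p = 2.14e-43), or 13.3-fold. Under OD it was 0.11 (95% confidence interval -0.061 to 0.28, edgeR adjusted p = 0.256). Single libraries decided this value, which was 0.23 (edgeR adjusted p = 0.0252) without control replicate 3 and 0.00039 (adjusted p = 0.999) without OD replicate 1. Without control replicate 1, control replicate 2 and OD replicate 3 it was 0.058, 0.061 and 0.17.

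FOSL2 encodes FRA2 and was already the second most abundant transcript of the 10 per kilobase in control cells. It had 140.6, 135.1 and 137.7 CPM in control libraries, 193.3, 192.8 and 194.0 CPM under CoCl2, and 209.7, 203.0 and 198.8 CPM under OD. Both treated groups lay above control, and the OD libraries lay narrowly above those under CoCl2. Its log2 fold changes of 0.49 (standard error 0.042, edgeR adjusted p = 1.4e-16) and 0.57 (standard error 0.042, adjusted p = 5.45e-19) stayed under the fold change threshold. The sign under CoCl2 depended on the scaling, as given above, whereas under OD it was 0.61 with library size alone.

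JUN, the transactivating subunit first found in AP-1, had 37.6, 40.5 and 38.9 CPM in control libraries and 135.5, 121.4 and 127.3 CPM under CoCl2. Under OD it had 47.9, 44.6 and 44.3 CPM, all above the control libraries but by little. The rise under CoCl2 was 3.29-fold (log2 fold change 1.72, standard error 0.054, edgeR adjusted p = 2.16e-38). Under OD the log2 fold change of 0.23 (standard error 0.057, edgeR adjusted p = 0.00045) was not called.

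JUNB, a weaker activator than JUN that competes with it for partners, had 6.94, 8.58 and 9.37 CPM in control libraries, 81.2, 77.2 and 76.9 CPM under CoCl2, and 21.7, 21.6 and 20.5 CPM under OD. No 2 groups overlapped. The rise was 9.46-fold under CoCl2 (log2 fold change 3.24, standard error 0.074, edgeR adjusted p = 7.92e-46) and 2.56-fold under OD (1.36, standard error 0.085, adjusted p = 4.75e-22).

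JUND, the JUN member known for steady expression in resting cells, had overlapping levels with both treatments when scaled by TMM factors. Control libraries held 44.5, 45.7 and 47.5 CPM, CoCl2 libraries 78.4, 74.5 and 70.4 CPM, and OD libraries 71.9, 77.1 and 72.1 CPM. The treated groups overlapped each other and neither overlapped control. Log2 fold changes were 0.70 under CoCl2 (standard error 0.055, edgeR adjusted p = 3.34e-18) and 0.68 under OD (standard error 0.054, adjusted p = 8.54e-18), both short of a call. Scaled by library size alone they were 0.19 (edgeR adjusted p = 0.00156) and 0.72 (adjusted p = 2.94e-16).

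ATF3, a bZIP factor that represses as a homodimer and can pair with JUN proteins, had 23.3, 21.9 and 21.9 CPM in control libraries. It reached 129.9, 120.0 and 118.5 CPM under CoCl2 and 83.2, 82.0 and 85.5 CPM under OD, and was the member whose responses to the 2 treatments were closest among those called with both. The log2 fold change was 2.46 under CoCl2 (standard error 0.057, edgeR adjusted p = 1.58e-45) and 1.90 under OD (standard error 0.058, adjusted p = 3.05e-38), or 5.5-fold and 3.74-fold.

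MAFF had 13.3, 11.0 and 14.9 CPM in control libraries, 237.1, 213.2 and 206.6 CPM under CoCl2 and 45.2, 41.4 and 40.0 CPM under OD, without overlap between groups. Its rise was 16.9-fold under CoCl2 (log2 fold change 4.08, standard error 0.07, edgeR adjusted p = 5.92e-41) and 3.25-fold under OD (1.70, standard error 0.078, adjusted p = 1.99e-23). Its groups kept the order control, OD, CoCl2, as did those of FOS, FOSB, JUN, JUNB and ATF3.

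EGR1 was the only member whose values lay on opposite sides of control with the 2 treatments. It had 18.5, 17.4 and 19.2 CPM in control libraries, 32.6, 30.1 and 27.9 CPM under CoCl2, and 9.81, 11.0 and 10.0 CPM under OD. All CoCl2 libraries were above, and all OD libraries below, every control library. The log2 fold changes were 0.72 under CoCl2 (standard error 0.075, edgeR adjusted p = 2.48e-13) and -0.84 under OD (standard error 0.085, adjusted p = 2.43e-13), neither past the fold change threshold. With library size as the only scaling they were 0.21 and -0.80, of the same sign.

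**Figure D2:**
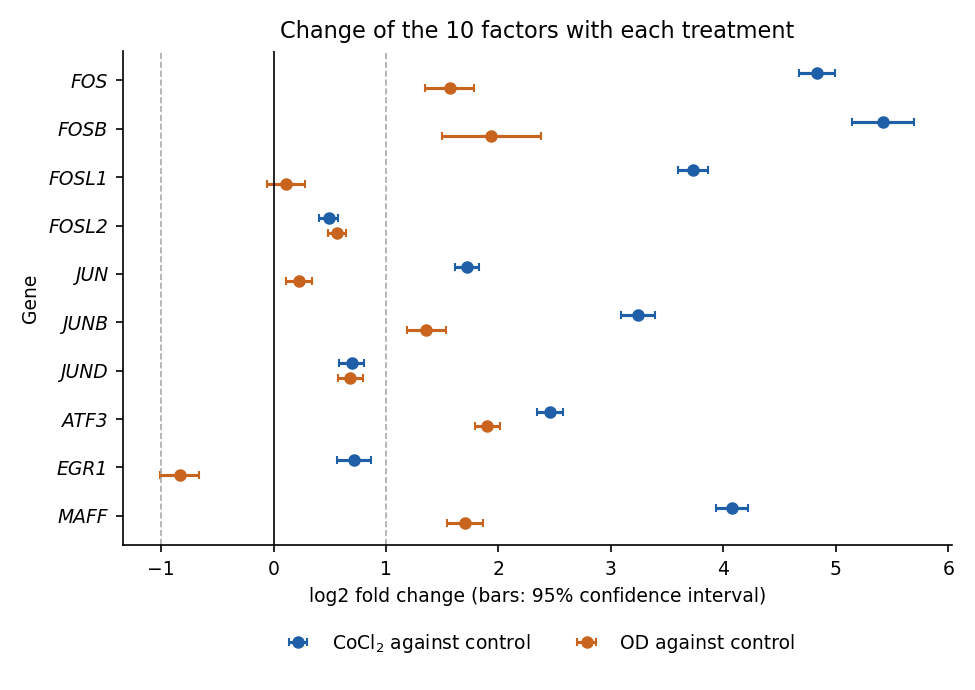
Points give the fitted log2 fold change of each gene against control cells under CoCl2 and under OD, with 3 libraries per group. Bars give the 95% confidence interval worked back from the edgeR test statistic. Dashed lines mark -1 and 1, and the 2 intervals of JUND and of FOSL2 overlap, while those of EGR1 lie on either side of 0.

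Under OD, 5 of the 10 members were called higher, FOS, FOSB, JUNB, ATF3 and MAFF, and none lower, where 9.09% of the tested genes were called higher and 4.16% lower. At an adjusted p under 0.05 without the fold change threshold, 8 members were higher and EGR1 was lower, beside 32.3% and 33.3% of the tested genes. Libraries lay entirely above control for 8 members and for 33.7% of tested genes. The median log2 fold change of the 10 was 1.02, against -0.01 for all tested genes. All 5 genes called under OD were also called under CoCl2, which shares the same control libraries, and JUN and FOSL1 were called under CoCl2 alone. FOSL2, JUND and EGR1 were called with neither treatment.

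The direct comparison of the treatments sets the CoCl2 libraries against the OD libraries. Control libraries still enter it through the gene filter, the TMM factors and the spread estimated in the fit on all 9 libraries. CoCl2 gave higher levels than OD for 7 called members, FOS, FOSB, FOSL1, JUN, JUNB, EGR1 and MAFF, against 17.5% of tested genes called higher and 23.8% called lower. At an adjusted p under 0.05 alone 8 members were higher under CoCl2, as were 40.2% of tested genes, and 8 members had libraries entirely above those under OD, as had 40.3%. FOSL1 differed most, by 3.62 on the log2 scale (standard error 0.065, edgeR adjusted p = 2.61e-43), or 12.3-fold. FOSB, FOS and MAFF followed with differences of 3.49, 3.27 and 2.37.

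EGR1 was 2.93-fold higher under CoCl2 than under OD (log2 difference 1.55, standard error 0.081, edgeR adjusted p = 9.83e-27), and the log2 difference was 1.005 with library size alone. The corresponding differences of JUNB and JUN were 1.88 and 1.49. JUN lost its call in this comparison with library size as the only scaling, at 0.94, and the count of members called higher was then 6. With that scaling 1351 of the 15944 tested genes were called higher and 6026 lower. ATF3 differed by 0.56 (standard error 0.048, edgeR adjusted p = 2.08e-16), under the fold change threshold, and by 0.0096 with library size alone. FOSL2 differed by -0.076 (95% confidence interval -0.16 to 0.0063, edgeR adjusted p = 0.0815). This p depended on the processing, and with library size alone the difference of FOSL2 was -0.62 (edgeR adjusted p = 3.5e-19). JUND differed by 0.012 (95% confidence interval -0.092 to 0.12, edgeR adjusted p = 0.835), while with library size alone the difference was -0.53 (adjusted p = 5.54e-13). With that scaling the median of all tested genes was -0.60, and relative to this median JUND was 0.063 higher, close to its 0.065 with TMM factors.

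Levels of different genes were compared as CPM per kilobase of merged exons. Exons of all annotated transcripts of a gene were merged, which for FOS gave 3186 of the 3405 bases it spans. The order and the family shares rest on this length, and no other was tried. In control cells the order began with JUND at 23.8 ± 0.786 (SD, n = 3), FOSL2 at 19.2 ± 0.389 and JUN at 10.8 ± 0.407. FOSL1, EGR1, ATF3, JUNB, MAFF, FOS and FOSB followed, from 8.05 ± 1.15 down to 0.142 ± 0.00727. All neighbours in this order were apart in every library except EGR1 and ATF3, whose ranges overlapped. Under OD the order began JUND, FOSL2 and ATF3, the last at 20.9 ± 0.451 CPM per kilobase, and only FOSL1 and MAFF overlapped as neighbours.

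Under CoCl2, FOSL1 stood first at 106.5 ± 3.33 CPM per kilobase. JUNB, FOS, MAFF, JUND and JUN came next, between 42.9 ± 1.32 and 35.3 ± 1.95, and each of them overlapped its neighbour. ATF3 at 30.7 ± 1.55, FOSL2 at 27.0 ± 0.0825, EGR1 at 9.63 ± 0.75 and FOSB at 6.18 ± 0.661 completed the order without overlap. FOSB thus had the largest fold change and the lowest level per kilobase.

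The make-up of both families under CoCl2 differed from that in control cells. FOSL2 carried 66.7% ± 2.9 (SD, n = 3) of the summed FOS family level per kilobase in control cells and 67.9% ± 1.33 under OD, but 14.9% ± 0.704 under CoCl2. FOSL1 carried 58.9% ± 0.751 under CoCl2 and FOS 22.8% ± 1.27, against 27.8% ± 2.82 and 5.0% ± 0.283 in control cells. The family sum was 28.9 ± 1.2 CPM per kilobase in control cells, 181.0 ± 7.91 under CoCl2 and 41.9 ± 1.89 under OD, which is 6.27 and 1.45 times the control level.

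JUND made up 60.9% ± 1.03 of the JUN family in control cells and 61.2% ± 1.33 under OD. Under CoCl2 the family was spread almost evenly, with 36.7% ± 0.403 for JUNB, 33.0% ± 0.856 for JUND and 30.2% ± 0.838 for JUN. The sum of the JUN family was 2.99 times control under CoCl2 and 1.6 times under OD. The FOS family was below the JUN family in sum in control cells, at 28.9 against 39.1 CPM per kilobase, and above it under CoCl2, at 181.0 against 116.8. For single values of this kind 3 libraries against 3 allow an exact permutation p of 0.1 at the smallest.

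**Figure D3:**
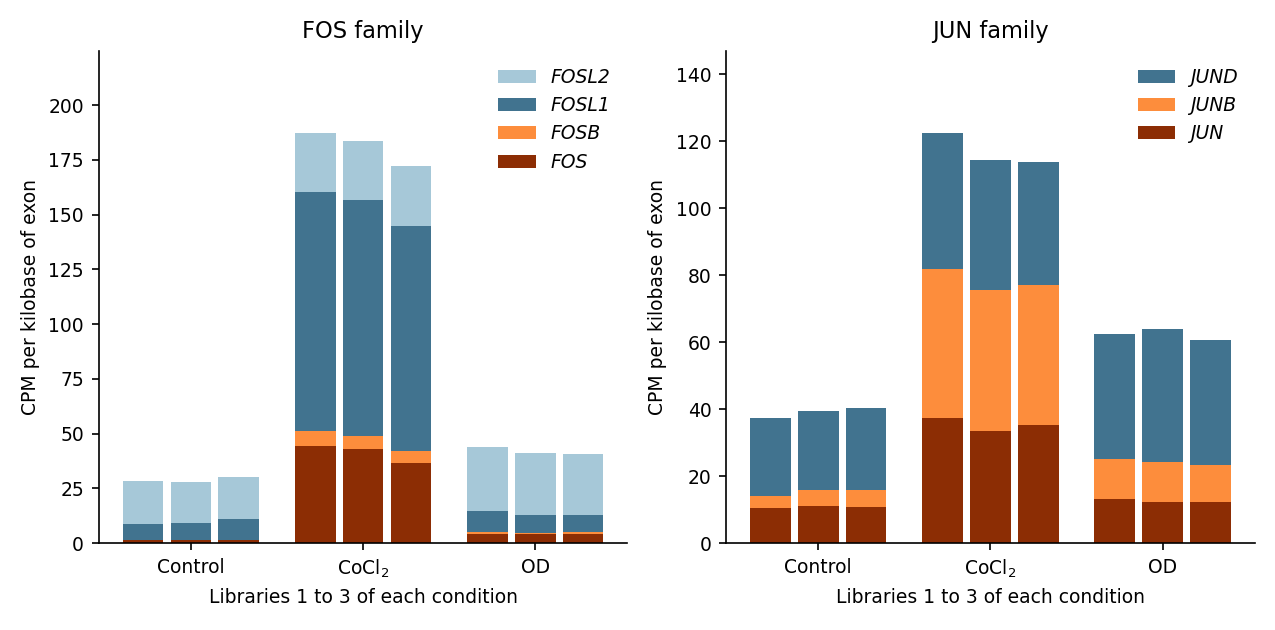
Stacked bars give the level of each FOS and JUN family gene in CPM per kilobase of exon, 1 bar per library. FOSL1 and FOS make up most of the FOS family under CoCl2, and FOSL2 most of it in control cells and under OD.

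Replicates were close. The coefficient of variation of the members ranged from 2.02% to 15.0% in control cells, from 0.305% to 10.7% under CoCl2 and from 2.16% to 12.6% under OD. The median over genes with at least 1 CPM was 5.59%, 6.17% and 4.91%. The widest spreads in control cells were those of MAFF, JUNB and FOSL1, which ranged between 14.3% and 15.0%.

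For 9 of the members the gene with the most similar log2 CPM over the 9 libraries is given, a likeness that describes mostly the 3 group levels. ARRDC3 followed FOS (Pearson r = 0.9993), NRIP3 followed FOSB (0.9993), PIM3 FOSL1 (0.9992), SPEN JUN (0.9993) and GPAT3 JUNB (0.9995). PFKFB3, which encodes an activator of glycolysis, followed ATF3 (0.9991), with 48.9 CPM in control cells, 250.6 under CoCl2 and 180.0 under OD. NRBF2 followed MAFF (0.999) and TRIM36 followed JUND (0.9929). For EGR1 it was the mitochondrially encoded MT-CO2 (0.9964), with 5848 CPM in control cells, 9578 under CoCl2 and 3164 under OD.

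Of a list of 25 other immediate-early genes, all tested, 19 were called higher and 0 lower under CoCl2 by edgeR, with a median log2 fold change of 1.88, beside the 19.9% and 23.4% of all tested genes called higher and lower, while under OD 5 were called higher and 0 lower with a median of 0.60, beside 9.09% and 4.16%. With library size alone 16 were called higher and 3 lower under CoCl2, beside 1833 and 5839 of the 15944 tested genes. The largest called changes under CoCl2 were those of ARC, CCN2, NR4A2, ZFP36 and IER5L. CCN2, a secreted matricellular protein, rose from 6.17 ± 0.999 to 471.8 CPM under CoCl2 (log2 fold change 6.25) and had 7.57 CPM under OD. ZFP36, which encodes an RNA-binding protein that promotes decay of AU-rich transcripts, had a log2 fold change of 3.64 under CoCl2 and 0.98 under OD.

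ARC had 1 or 2 counts in each control library and 83 to 152 under CoCl2, 87.2 times the control rate with a counting interval of 37.0 to 270.0 (exact, 95%). Under OD it again had 1 or 2 counts. The orphan nuclear receptors NR4A1, NR4A2 and NR4A3 were called with both treatments, with log2 fold changes of 1.85, 4.24 and 2.22 under CoCl2 and 1.27, 2.43 and 2.22 under OD. Counts of NR4A3 were few, with 0.128 ± 0.132 CPM in control cells, 0.566 ± 0.297 under CoCl2 and 0.599 ± 0.0194 under OD. KLF4 was called with both as well, at 2.71 and 2.28, and KLF2 under OD alone, at 1.44. KLF2 also had few counts, with 0.322 ± 0.109 CPM in control cells and 0.88 ± 0.299 under OD. The corepressors that bind EGR proteins differed, NAB1 with a log2 fold change of -1.42 under CoCl2, the only call of these 2 genes with either treatment, and NAB2 with 0.30.

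MYC, PTGS2 and BTG2, chosen after their values were seen, were the members of this list with negative log2 fold changes under CoCl2, -0.78, -0.57 and -0.93. These 3 were the genes called lower with library size as the only scaling.

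**Figure D4:**
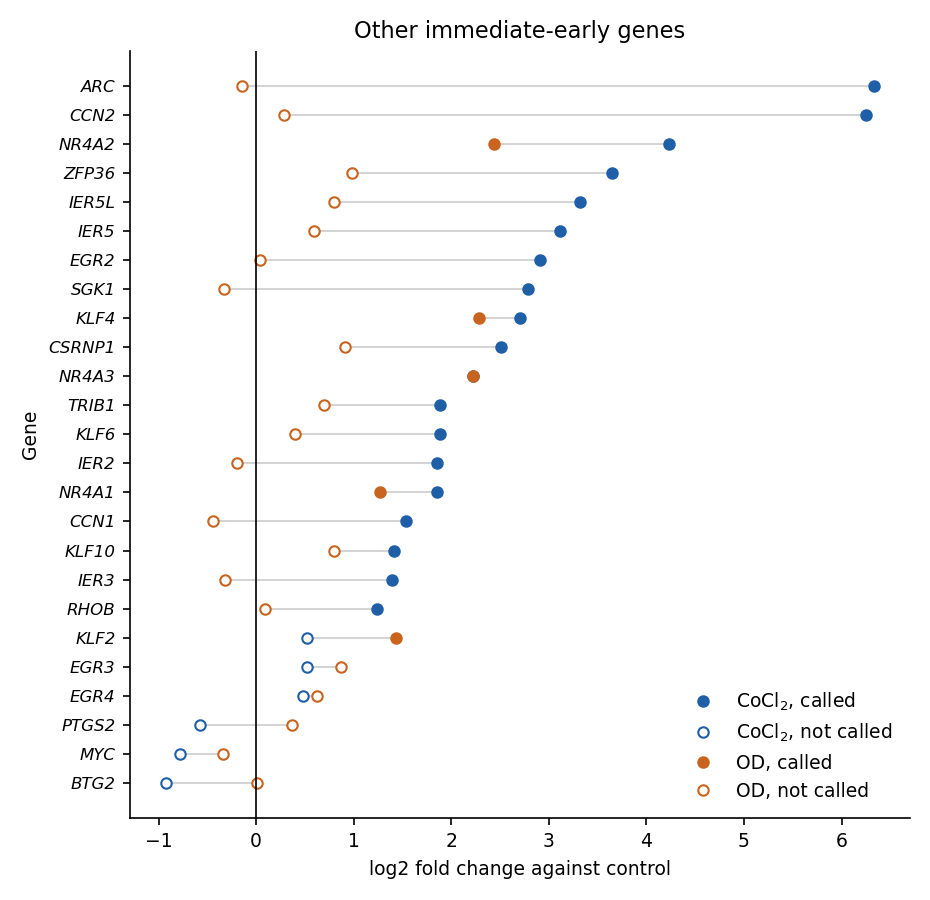
Each row is 1 of 25 immediate-early genes outside the 10, with its log2 fold change against control for CoCl2 and OD joined by a line. Filled points are called and open points are not: 19 are filled for CoCl2 and 5 for OD, all to the right of 0, and the positions of ARC rest on 1 or 2 counts per library in control cells and under OD.

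Partners of the members formed further lists. Among 8 small MAF genes and their CNC-type bZIP partners, 6 were called higher and 2 lower under CoCl2, around a median log2 fold change of 1.65 (5 higher and 2 lower with library size alone), and under OD 2 were called higher. The shares of all tested genes were 19.9% higher and 23.4% lower under CoCl2 and 9.09% higher under OD, so that the 2 called lower were near the share of all genes. With library size alone 1833 of the 15944 tested genes were called higher and 5839 lower under CoCl2. MAFG had the largest of these under CoCl2, rising from 42.8 ± 1.25 to 452.2 CPM (log2 fold change 3.40), and had 52.8 CPM under OD. MAFK and BACH1, the latter a repressor that pairs with small MAF proteins, were called at 1.74 and 2.43 under CoCl2, and NFE2L2, which encodes NRF2, at 1.57. NFE2 and NFE2L3 were called lower, at -1.99 and -1.38. NFE2L1 was called with both treatments, at 1.22 and 1.12.

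BACH2 had 1 or 2 counts per control library, 6 to 12 under CoCl2 and 10 to 18 under OD, ratios to control of 6.15 (exact 95% counting interval 2.32 to 20.5) and 7.72 (3.06 to 25.0). Of 8 other tested AP-1 partners, 2 were called higher, BATF among them, and BATF2 and JDP2 lower under CoCl2, while 2 were called higher under OD, CREB5 among them. The counts under CoCl2 were near the shares of all tested genes, 19.9% higher and 23.4% lower, and 9.09% of all genes were called higher under OD. BATF and BATF2 had few counts. BATF had 0.353 ± 0.175 CPM in control cells and 1.49 ± 0.231 under CoCl2, and BATF2 0.841 ± 0.0789 and 0.254 ± 0.145. JDP2, a repressor of AP-1, had 35.7 ± 2.81 CPM in control cells, 16.8 under CoCl2 and 50.8 under OD. The median of this list under CoCl2 was 0.41, and it turned to -0.094 with library size alone.

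Of 8 genes of the ATF4 branch of the stress response, which lies upstream of ATF3, DDIT3, CEBPB and PPP1R15A were called higher under CoCl2. Under OD CHAC1 and PPP1R15A were called higher, and none was called lower with either treatment. Of all tested genes 19.9% and 9.09% were called higher under CoCl2 and OD, and 23.4% and 4.16% lower. With library size alone 1 was called higher under CoCl2 and 3 under OD, beside 1833 and 1552 of the 15944 tested genes. PPP1R15A, which encodes GADD34, rose from 93.5 ± 4.43 to 1079 CPM under CoCl2 and to 190.5 under OD. CHAC1 had 9.6 ± 0.97 CPM in control cells, 11.5 under CoCl2 and 35.7 under OD.

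Of 20 tested kinases and factors that act upstream of these genes, MAP2K1, MAP2K7, MAPK7, ELK3 and MRTFA were called higher under CoCl2 and ELK3 under OD, and none lower, with medians of 0.32 and 0.089. The count under CoCl2 was near the 19.9% of all tested genes called higher, and that under OD was below the 9.09%. Of all tested genes 23.4% were called lower under CoCl2 and 4.16% under OD. With library size alone the median under CoCl2 was -0.19, with 2 called higher and 3 lower. The median of all 15944 tested genes was then -0.55, with 1833 called higher and 5839 lower. Both of the MAP2K genes called encode kinases that phosphorylate MAP kinases, and their log2 fold changes under CoCl2 were 1.54 for MAP2K1 and 1.29 for MAP2K7.

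Among 18 tested genes commonly listed as AP-1 targets, 10 were called higher and CCND1 lower under CoCl2, with a median log2 fold change of 1.06, and 5 higher and none lower under OD, with a median of 0.70. Of all tested genes 19.9% were called higher and 23.4% lower under CoCl2 and 9.09% and 4.16% under OD, with medians of -0.049 and -0.01. With library size alone 7 were called higher and 1 lower under CoCl2, beside 1833 and 5839 of the 15944 tested genes. Much of the count of 10 called higher under CoCl2 rests on genes near the floor. MMP3, MMP7, MMP13, TIMP1, CXCL8, SPP1 and IL11 had mean levels of at most 0.596 CPM in control cells. MMP7 and TIMP1 passed the fold change threshold narrowly, at 1.008 and 1.12. MMP13, which encodes a collagenase, was counted 53 to 77 times per CoCl2 library, 0 to 2 times per OD library and 0 times in the control libraries. Against a floor of 3 counts per control library its level was at least 25.4-fold higher under CoCl2. LAMB3, a laminin chain, was called with both treatments, rising from 164.3 ± 5.6 to 1027 CPM under CoCl2 and 445.1 CPM under OD. PLAUR, the urokinase receptor gene, was called with both as well, at 2.84 and 2.55. SPP1, the osteopontin gene, had 1 to 3 counts per control library and 10 to 36 under CoCl2, a ratio of 16.3 (exact 95% counting interval 6.66 to 51.8). MMP3 had 2 counts per control library and 9 to 18 under CoCl2, a ratio of 8.47 (3.59 to 24.4). CXCL8, which encodes a neutrophil chemokine, was called under CoCl2 at 3.13, from a low level of 0.193 ± 0.0236 CPM in control cells to 1.76 ± 0.693. PLAU, the urokinase gene, was called under OD at 2.002, with 0.95 for CoCl2. CCND1, which encodes cyclin D1, had 282.8 ± 9.24 CPM in control cells, 84.6 under CoCl2 and 376.9 under OD.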

How the data were processed

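Poly(A) mRNA was sequenced in 9 libraries of uCaco-2 cells, 3 per treatment. Per the labels and the study's methods, the authors assessed reads with FastQC 0.11.9, trimmed adapters with cutadapt 2.10, mapped them on GRCh38.p13 with STAR 2.7.5b and counted them on GENCODE release 34. The deposited values are raw counts per gene symbol. The counting tool is not given in the sources used here. All 9 columns matched a sample title, and 0 were left unused.

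The 10 members and all gene lists were chosen with earlier results of these data known. From the counts, edgeR 4.0.16 in R 4.3.3 was used for TMM factors, for CPM and for quasi-likelihood tests with robust dispersions on all 9 libraries. Its filter kept 15944 of 60591 symbols, the 10 members included. A gene was called where its adjusted p was under 0.05 and its log2 fold change exceeded 1 in either direction. Log2 fold changes are fitted with a small prior count, which understates those of genes near 0.

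Named genes were the members, up to 5 called genes of each list per direction, and the most similar gene of each member. Some genes that this rule names are not reported here. NAB2, HOOK2, PLA2G6, VIL1, COL1A1, PECAM1, MMP7 and IL11 were named outside this rule, after their values were seen. Gene models came from GENCODE release 44, which matched 88.7% of tested symbols. Steps were tested on simulated data. DESeq2 1.42.0, RLE factors, library size alone, other count filters, 6-library fits, the replicate block and leaving out each library were tried as alternatives. Totals were 15998136 to 24209427 counts per library. Standard errors and 95% confidence intervals of edgeR fits were worked back from the log2 fold change and the test's F statistic. They can be too narrow for genes with few control counts and large changes. For FOSB, counted 14 to 17 times per control library, the standard errors were 0.138 under CoCl2 and 0.22 under OD. DESeq2 on 9 libraries gave FOSB 0.242 and 0.261, and gave FOS 0.115 under CoCl2 against 0.081 by edgeR. Counting intervals cover counting error only.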

Additional observations from a re-analysis of the deposited data

How the results depend on the processing

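Without the fold change threshold, 10 members were higher with CoCl2, 8 were higher and 1 was lower with OD, and 8 were higher with CoCl2 than with OD, against 7, 5, 0 and 7 with it. Leaving out each library gave 7 to 7 members called higher with CoCl2, 5 to 5 with OD and 7 to 7 between the treatments, and 0 to 0 called lower in each. With library size alone, 6 members were called higher with CoCl2 than with OD, since JUN fell to 0.94. Of the 15944 tested genes 1351 were then called higher and 6026 lower. That scaling also gave FOSL2 a log2 fold change of -0.016 with CoCl2. Of the genes called with CoCl2, 46.0% were higher with TMM factors and 23.9% with library size alone, and between the treatments 42.4% and 18.3%, which follows from leaving out the composition factor. The difference of JUND between the treatments, 0.012 at an adjusted p of 0.835 by edgeR, changed sign in 8 settings, to -0.0056 with DESeq2 on the 6 libraries compared, -0.53 when scaled by library size only, -0.054 when no count filter was applied, -0.041 with at least 10 counts in every library, and -0.003, -0.024, -0.013 and -0.011 without control replicate 1, CoCl2 replicate 1, OD replicate 1 and OD replicate 3. Leaving out single libraries gave it values from -0.024 to 0.056. The difference of FOSL2 between the treatments, -0.076 at an adjusted p of 0.0815 by edgeR, had one of 0.00462 with no count filter (-0.14), 0.00308 with at least 10 counts in every library (-0.13), 0.0459 with DESeq2 on the 6 libraries compared (-0.094), 0.0337 without control replicate 1 (-0.091), 0.0386 without OD replicate 3 (-0.10) and 0.469 with RLE factors (-0.032). With the replicate number as a block, 7, 5 and 7 members were called higher. Deviations of same-numbered libraries correlated between -0.0049 and 0.038, and those of differently numbered libraries between -0.047 and 0.025. Values this small cannot decide whether the numbers pair the libraries. The block changed no call of a member. Genes with few counts in control cells, such as FOSB, ARC and MMP13, are limited by depth.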
